A study of Mus musculus with 40 samples.

Results

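The genes described here are 4 of the interleukin 6 cytokine family in mouse helper T cells: the ligands Lif and Osm and the receptor chains Il6ra and Il6st. They were taken by symbol from the platform's probe-to-gene table, which named 19057 genes, and all 4 were measured. They are covered by 12 probes, of which 9 passed the detection filter (a detection p under 0.05 on at least 5 of the 40 arrays). The bead arrays measured total RNA of T cells 48 h or 72 h after induction to the Th1 or Th17 lineage. They came from naive CD4+ CD62L+ cells of C57BL6 mice (8 to 12 weeks of age), isolated from spleen and lymph nodes. The 8 groups of 5 arrays were Malt1-/- Th17 and WT Th17 at 48 h, Malt1-/- Th17 and WT Th17 at 72 h, Malt1-/- Th1 and WT Th1 at 48 h, and Malt1-/- Th1 and WT Th1 at 72 h. The labels give the genotype as Malt1-/- or WT and the treatment as induction, without the allele's construction or the inducing agents. They do not say whether replicates came from separate mice or cultures, and p-values then measure only the spread between these arrays, which may be technical.

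Cytokines of this family signal through receptor complexes that share the chain gp130, the product of Il6st. Interleukin 6 binds the receptor chain made by Il6ra before it engages gp130, whereas leukaemia inhibitory factor (Lif) binds the chain made by Lifr, and oncostatin M (Osm) binds that made by Osmr. Bound gp130 activates Janus kinases and the transcription factor STAT3, and Socs3 dampens the signal. In CD4 T cells interleukin 6 acting with transforming growth factor beta is known to drive the Th17 fate through STAT3. Th1 cells make interferon gamma and Th17 cells interleukin 17. Malt1 encodes a scaffold and protease that connects the antigen receptor to NF-kappaB.

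Differences are on the log2 scale, from limma fitted on all 40 arrays, and errors are its standard errors (SE). A gene was called where its p, adjusted by Benjamini-Hochberg over 10730 genes, was under 0.05. Levels are log2 normalised signals, given by array in the order of the replicate numbers or as mean ± SD, with n = 5 arrays per group throughout. Malt1 itself averaged 8.64 and 7.93 in Malt1-/- Th17 cells at 48 h and 72 h, against 12.49 and 12.68 in WT Th17 cells, and 6.70 and 6.50 in Malt1-/- Th1 cells, against 10.80 and 11.42 in WT Th1 cells. The genotypes did not overlap in any of the 4 comparisons (adjusted p from 1.5e-14 to 3.17e-11, limma). Each array detected 14640 to 17409 probes. Over all genes, 8 arrays correlated better with the mean of another group than with their own: Malt1-/- Th17 72 h replicate 2, WT Th17 48 h replicate 5, WT Th17 72 h replicates 4 and 5, Malt1-/- Th1 48 h replicate 2, WT Th1 48 h replicate 1, Malt1-/- Th1 72 h replicate 2 and WT Th1 72 h replicate 4. WT Th1 48 h replicate 4 detected Il17f (9.37), which is against its label. In these bulk samples, fewer cells of a type and less RNA per cell cannot be told apart. Of 11 listed T cell markers 9 were tested, and all 9, Cd3e and Cd4 among them, were detected on all 40 arrays, at levels that were not equal in all groups.

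Lif was the member that differed between genotypes. The start of the Lif gene lies on mouse chromosome 11, where the next protein-coding genes on either side are Osm and Hormad2. The RefSeq promoter window of Lif, 300 bases around the gene's start, is shown because Lif carries the genotype difference. It lies at chr11:4257318-4257617 on the plus strand of GRCm38.p6, in capitals where a searched motif matched.
Lif promoter: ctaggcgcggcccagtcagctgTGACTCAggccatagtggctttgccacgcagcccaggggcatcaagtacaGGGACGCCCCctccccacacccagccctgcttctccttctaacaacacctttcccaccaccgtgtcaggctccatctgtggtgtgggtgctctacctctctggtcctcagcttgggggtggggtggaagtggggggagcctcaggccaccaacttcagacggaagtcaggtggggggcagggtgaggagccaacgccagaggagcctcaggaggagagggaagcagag
The first capitals are TGACTCA, a match to the AP-1 motif TGANTCA that starts 228 bases before the gene's start. The second, GGGACGCCCC, matches the kappaB motif and starts 178 bases before it. Both strands were searched, the matches did not overlap, and neither the STAT motif TTCNNNGAA nor the NFAT motif TGGAAA was in the window. Over 32851 promoters of the same length, 7.81% held the AP-1 motif, 8.46% the kappaB motif, 8.30% the STAT motif and 21.4% the NFAT motif. The windows of Il6ra (chromosome 3) and Il6st (chromosome 13) held none of the 4 motifs, and for Osm no window was available. The matches in the Lif window describe letters, not binding, and their part in the genotype difference was not tested.

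Lif fell in Malt1-/- Th17 cells at both times. At 48 h, its probe ILMN_3137287 read 5.29, 4.96, 5.09, 4.96 and 5.41 in Malt1-/- Th17 cells, against 7.52, 7.75, 6.97, 7.88 and 7.23 in WT Th17 cells. The 2 groups did not overlap, and Lif was detected on 2 of 5 Malt1-/- arrays, against 5 of 5 WT arrays. The difference was -2.33 ± 0.35 (SE), 5.02-fold lower in Malt1-/- cells (adjusted p = 0.000158, limma), in a comparison in which 6.38% of all genes were called. At 72 h, Lif read 6.39, 5.54, 6.27, 6.17 and 4.96 in Malt1-/- Th17 cells, against 7.89, 8.70, 7.98, 6.91 and 6.52 in WT Th17 cells. The highest Malt1-/- array lay just under the lowest WT array, and 4 of 5 Malt1-/- arrays detected Lif. The difference was -1.74 ± 0.35, 3.34-fold lower (adjusted p = 0.00415, limma), where 4.42% of genes were called. A fit of the 2 groups alone ends this call (adjusted p = 0.102). The size of both differences depends on the processing: over 11 alternatives it ran from -2.39 to -0.90 at 48 h and from -2.25 to -0.81 at 72 h. The smallest values came without background correction and with the authors' deposited values. The folds above are those of background-corrected signals, with Malt1-/- arrays at or near background.

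The 2 lowest WT arrays at 72 h, replicates 4 and 5, are among the 8 that stood closer to another group. Without those 8 arrays, Lif differed by -2.39 ± 0.30 at 48 h (adjusted p = 4.67e-06, limma) and by -2.25 ± 0.34 at 72 h (adjusted p = 7.75e-05). That fit was chosen after seeing the data. Leaving out arrays that resemble another group can widen group differences and tends to lower p, here and wherever the 8 arrays are left out below. In Th17 cells at 72 h it raised the genes called between genotypes from 474 to 1685, so these p-values add no support.

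In Th1 cells no difference in Lif between the genotypes passed the test. At 48 h it read 7.21, 8.77, 6.68, 8.10 and 7.44 in Malt1-/- Th1 cells, against 7.55, 8.12, 8.27, 7.47 and 7.35 in WT Th1 cells. The groups overlapped and differed by -0.11 (95% interval -0.83 to 0.61, adjusted p = 0.955, limma), where 1.39% of genes were called. At 72 h it read 9.25, 8.10, 8.81, 8.36 and 9.12 in Malt1-/- Th1 cells, against 9.19, 8.25, 8.43, 7.55 and 7.83 in WT Th1 cells. The difference was 0.48 (95% interval -0.24 to 1.20, adjusted p = 0.538), where 2.77% of genes were called.

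The genotype effect on Lif was tested for a difference between the lineages. At 72 h it was -2.22 ± 0.50 in Th17 minus Th1 (adjusted p = 0.0193, limma), a call that 0.699% of genes shared. At 48 h it was -2.21 ± 0.50, of nearly equal size, but missed the threshold (adjusted p = 0.0508), where 0.140% of genes were called. Leaving out 1 array at a time, the adjusted p at 48 h ran from 0.0246 to 0.119, and passed without WT Th17 replicate 5, Malt1-/- Th1 replicate 3 or WT Th1 replicate 2. At 72 h it ran from 0.00618 to 0.0594, and missed without Malt1-/- Th17 replicate 5 or Malt1-/- Th1 replicate 5. Without the 8 arrays both passed (-1.94, adjusted p = 0.0159, and -2.71, adjusted p = 0.00102). The 72 h call was lost under 3 of 11 alternatives. These were no background correction and the authors' values (-1.15 in each, adjusted p = 0.0576 and 0.0581, limma) and a fit of its 4 groups alone (-2.22, adjusted p = 0.127). At 48 h the effect was called under 5 of 11, the fit without the 8 arrays among them. The effect did not pass a test of change between 72 h and 48 h in Th17 cells (0.59 ± 0.50, adjusted p = 0.595) or in Th1 cells (0.59 ± 0.50, adjusted p = 0.965). In those tests 0.121% and 0.0746% of genes were called.

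**Figure D1:**
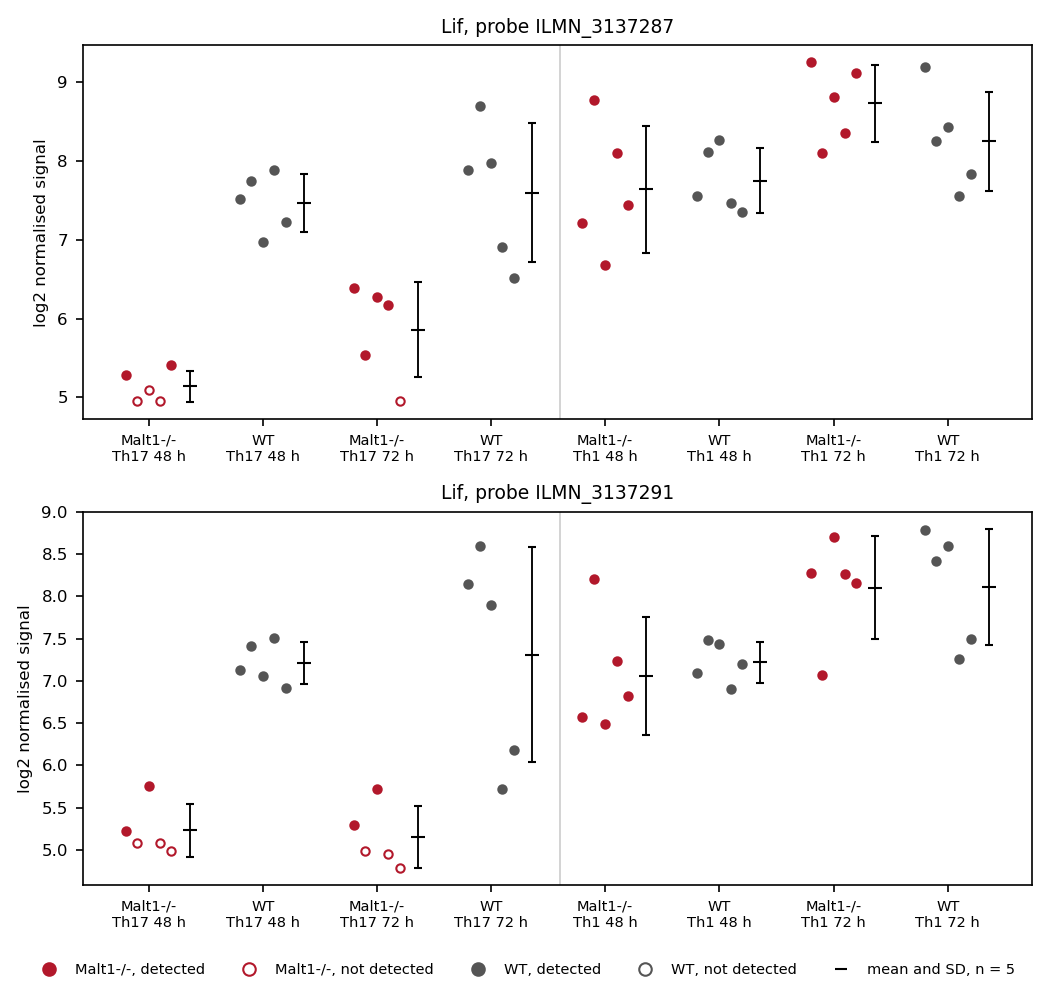
Log2 normalised signal of the 2 Lif probes that were detected on most arrays, by group and array. Filled points were detected and open points were not, and bars are the mean and SD of 5 arrays. For probe ILMN_3137287 the Malt1-/- Th17 arrays lie between 4.96 and 5.41 at 48 h, under all WT Th17 arrays, while Malt1-/- and WT Th1 arrays overlap.

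A second Lif probe for the same transcript, ILMN_3137291, was tested on its own. It differed by -1.98 ± 0.38 at 48 h (adjusted p = 0.00309, limma over all kept probes) and by -2.16 ± 0.38 at 72 h (adjusted p = 0.000861) in Malt1-/- minus WT Th17 cells. At 48 h its groups did not overlap, while at 72 h WT replicate 4 (5.72) lay at the level of the highest Malt1-/- array (5.72). In Th1 cells this probe differed by -0.16 and -0.01, and neither passed the test. Its genotype effect did not pass the test of a difference between lineages (-1.82, adjusted p = 0.205, at 48 h, and -2.15, adjusted p = 0.0720, at 72 h). Of 3 probes annotated to another Lif transcript record, ILMN_1234792 was detected on 10 of 40 arrays and gave no call, ILMN_1242312 was detected on 1 array and ILMN_2777786 on 0, and these last did not pass the filter.

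Between lineages, Lif was lower in Th17 than in Th1 cells of Malt1-/- mice. The difference was -2.50 ± 0.35 at 48 h (5.64-fold, adjusted p = 1.4e-06, limma) and -2.86 ± 0.35 at 72 h (7.28-fold, adjusted p = 9.62e-08). Over 11 alternatives the difference ran from -2.50 to -1.04 at 48 h and from -2.94 to -1.54 at 72 h, smallest with the authors' deposited values, and was called in each. All 5 Malt1-/- Th17 arrays lay under all 5 Malt1-/- Th1 arrays at each time. Such lineage calls were common: 18.6% of genes were called in Malt1-/- cells at 48 h and 20.8% at 72 h. In WT cells the Th17 minus Th1 difference of Lif was -0.28 ± 0.35 (adjusted p = 0.660) at 48 h and -0.65 ± 0.35 (adjusted p = 0.218) at 72 h. There 17.5% and 18.9% of genes were called. These 4 comparisons use the same arrays as the genotype comparisons and are not independent of them.

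Over time, no change in Lif was called with all 40 arrays in the fit, though that in Malt1-/- Th1 cells lay at the threshold. The 72 h minus 48 h difference came to 1.09 ± 0.35 in Malt1-/- Th1 cells (adjusted p = 0.0588, limma), 0.72 in Malt1-/- Th17 cells, 0.50 in WT Th1 cells and 0.13 in WT Th17 cells. The first of these was called under 5 of 11 alternatives (without background correction, under median scaling, with the authors' values, with array weights and without the 8 arrays), and without replicate 2 of either time. Over the alternatives it ran from 0.71 to 1.53, the highest without the 8 arrays (1.53 ± 0.32, adjusted p = 0.00107). Ordered by level, the means of Lif ran from 8.73 ± 0.49 in Malt1-/- Th1 cells at 72 h through 7.47 ± 0.37 in WT Th17 cells at 48 h, over 6 groups whose neighbours differed by less than their larger SD. Below them came Malt1-/- Th17 cells at 72 h (5.86 ± 0.60) and at 48 h (5.14 ± 0.20), each apart from its neighbour by more than that SD.

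Myeloid markers moved along with the genotype in Th17 cells. Of 11 listed markers 8 were tested. At 72 h 4 rose in Malt1-/- Th17 cells (S100a8, S100a9, Lyz1 and Fcer1g), where 4.42% of all genes were called. At 48 h S100a8 alone rose, where 6.38% were called. The summed linear signal of the 8 tested markers was 590 to 6558 (median 1365) in Malt1-/- Th17 arrays at 72 h. In WT Th17 arrays it was 290 to 685 (median 425). At 48 h it was 432 to 2251 (median 489) in Malt1-/- Th17 arrays, against 300 to 999 (median 498) in WT Th17 arrays. Of 10 markers with a probe, Itgam was detected on 0 of 40 arrays, Cd14 on 1, Csf1r and Lyz2 on 5, Tyrobp on 6, S100a9 on 7, S100a8 on 10, Lyz1 on 12, Ly86 on 32 and Fcer1g on 38. No marker of this list was called between genotypes in Th1 cells, where 1.39% and 2.77% of all genes were called. Between lineages, 4 were higher in Th17 than in Th1 cells of Malt1-/- mice at 48 h and 5 at 72 h, and 0 in WT cells. There 17.5% to 20.8% of all genes were called. The part of the myeloid transcripts in the fall of Lif and in the lineage differences of Malt1-/- cells was not tested.

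T cell markers also differed between some of the groups. In Malt1-/- minus WT Th17 cells at 72 h the median of the 9 tested markers was -0.45, against 0.04 over all genes. Their summed linear signal there was 49024 to 59967 in Malt1-/- arrays, against 59927 to 75650 in WT arrays. Of the 9, Cd4 alone was called, in a comparison where 4.42% of all genes were. It was lower in Malt1-/- cells (-0.89 ± 0.24, adjusted p = 0.0303, limma). On a separate list of CD8 and NK cell markers, 3 genes were tested and 1 was called at 72 h. It was Cd8b1, which makes a chain of the CD8 coreceptor and was lower (-0.65, adjusted p = 0.0198, limma). The median of those 3 genes was 0.29, against 0.04 over all genes. At 48 h 0 of the 9 T cell markers were called in Th17 cells, with a median of 0.06, where 6.38% of all genes were called. Between lineages 17.5% to 20.8% of all genes were called. Of the 9 T cell markers, 3 were lower in Th17 than in Th1 cells of Malt1-/- mice at 48 h and at 72 h. They were Cd247 (-1.35 and -1.20), Cd4 (-1.03 and -0.92) and Cd28 (-1.22 and -1.53), which make a signalling chain of the antigen receptor complex, its coreceptor and a costimulatory receptor, while Lat was higher at 48 h (1.09) and Thy1 at 72 h (0.55). In WT cells Cd4 was lower at 48 h (-1.10) and Cd3e higher at 72 h (0.67). The part of these differences in those of Lif was not tested.

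Osm, encoded next to Lif, was detected on all 40 arrays by both of its probes and did not pass the test in any genotype comparison. At 48 h it averaged 10.38 ± 0.16 in Malt1-/- Th17 cells and 10.50 ± 0.27 in WT Th17 cells, a difference of -0.12 (95% interval -0.59 to 0.35). At 72 h it averaged 10.60 ± 0.33 in Malt1-/- Th17 cells and 10.94 ± 0.33 in WT Th17 cells, a difference of -0.34 (95% interval -0.81 to 0.13, adjusted p = 0.401, limma). Without the 8 arrays that difference was -0.66 ± 0.23 and passed the test (adjusted p = 0.0460). In Th1 cells the differences were 0.14 (95% interval -0.33 to 0.61) at 48 h and 0.60 (95% interval 0.13 to 1.06, adjusted p = 0.178) at 72 h.

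Osm was higher in Malt1-/- Th1 cells at 72 h than in the same cells at 48 h and than in Malt1-/- Th17 cells at 72 h, while the difference from WT Th1 cells at 72 h, above, was not called. It read 11.93, 11.21, 11.46, 11.81 and 11.38 in Malt1-/- Th1 cells at 72 h, against 10.37, 11.19, 9.79, 10.47 and 10.54 in Malt1-/- Th1 cells at 48 h. The groups did not overlap, though 48 h replicate 2 lay just under the lowest 72 h array. The rise was 1.08 ± 0.23 (2.12-fold, adjusted p = 0.00376, limma), where 5.95% of genes were called. In WT Th1 cells Osm differed by 0.63 ± 0.23 over the same time (adjusted p = 0.0751), where 10.5% of genes were called. In Th17 cells the 72 h minus 48 h difference was 0.22 in Malt1-/- cells and 0.44 in WT cells, neither called, where 0.699% and 12.3% of genes were called. Without the 8 arrays the change with time passed in both WT lineages, at 0.67 in Th17 cells (adjusted p = 0.0322) and 0.67 in Th1 cells (adjusted p = 0.0214). The change with time did not pass a test of difference between the genotypes in Th1 cells (0.46 ± 0.33, adjusted p = 0.947).

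Osm was lower in Th17 than in Th1 cells of Malt1-/- mice at 72 h. It read 10.33, 11.03, 10.41, 10.36 and 10.87 in the Th17 arrays, all under the Th1 arrays above, and differed by -0.96 ± 0.23 (1.94-fold, adjusted p = 0.00205, limma). The other 3 lineage differences lay between -0.10 and 0.16 and were not called. The second Osm probe, ILMN_2543107, gave like values for the 2 called comparisons but missed the threshold over all probes: 1.05 (adjusted p = 0.0658) for the change with time and -0.92 (adjusted p = 0.0524) for the lineage difference. The genotype effect on Osm at 72 h did not pass the test of a difference between lineages (-0.94 ± 0.33, adjusted p = 0.222), and passed without the 8 arrays (-1.18, adjusted p = 0.0325). In the order of levels, Malt1-/- Th1 cells at 72 h stood above WT Th1 cells at 72 h (11.56 ± 0.30 and 10.96 ± 0.45) by more than the larger SD, as did WT Th17 over Malt1-/- Th17 cells at 72 h, and no other neighbours did.

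Il6ra, which makes the interleukin 6 binding chain, was higher in Th17 than in Th1 cells and did not pass the test between genotypes. Its most intense probe, ILMN_1255743, read 8.21, 6.86, 8.48, 7.38 and 7.35 in Malt1-/- Th17 cells at 48 h, against 6.55, 6.22, 4.67, 5.99 and 6.98 in Malt1-/- Th1 cells. A single pair of arrays overlapped, Th17 replicate 2 and Th1 replicate 5. The difference was 1.57 ± 0.43 (2.97-fold, adjusted p = 0.00752, limma). At 72 h Il6ra read 7.04, 6.62, 7.46, 6.43 and 7.66 in Malt1-/- Th17 cells, against 5.16, 5.91, 5.22, 5.51 and 5.86 in Malt1-/- Th1 cells. These groups did not overlap and differed by 1.51 ± 0.43 (2.85-fold, adjusted p = 0.00874).

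In WT cells the lineage difference of Il6ra was called at 72 h only. It read 6.97, 6.96, 6.83, 7.77 and 7.72 in WT Th17 cells at 72 h, against 5.08, 5.05, 5.67, 7.52 and 6.23 in WT Th1 cells. Th1 replicate 4, one of the 8 arrays that stood closer to another group, lay inside the Th17 range. The difference was 1.34 ± 0.43 (2.53-fold, adjusted p = 0.0238, limma), and 1.41 ± 0.45 without the 8 arrays (adjusted p = 0.0258). The call was lost without any one of WT Th17 replicates 4 and 5 and WT Th1 replicates 1, 2 and 3. At 48 h it was 0.98 ± 0.43 (adjusted p = 0.117). The genotypes did not pass a test of difference in this lineage effect at either time (0.59 and 0.17, adjusted p = 0.756 and 0.958). Il6ra was detected on all 20 Th17 arrays and on 14 of 20 Th1 arrays. The other Il6ra probes, ILMN_1216057 and ILMN_2706430, were each detected on 31 of 40 arrays. Their lineage differences were all above 0, between 0.05 and 1.00, and none passed the test.

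Between genotypes Il6ra differed by 0.64 (95% interval -0.23 to 1.51) and -0.21 (95% interval -1.08 to 0.66) in Th17 cells at 48 h and 72 h. In Th1 cells it differed by 0.05 (95% interval -0.82 to 0.92) and -0.38 (95% interval -1.25 to 0.49). None of its 4 changes with time was called. In the order of its levels all 4 Th17 groups (7.01 to 7.65) stood above all 4 Th1 groups (5.53 to 6.08), and the step between them was the only one larger than the SD of its neighbours.

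Il6st, which makes gp130, was also higher in Th17 than in Th1 cells of Malt1-/- mice. It read 7.44, 7.33, 7.47, 8.02 and 7.61 in Malt1-/- Th17 cells at 48 h, against 5.87, 6.31, 5.86, 6.29 and 6.36 in Malt1-/- Th1 cells. The groups did not overlap, and the difference was 1.44 ± 0.34 (2.71-fold, adjusted p = 0.00178, limma). At 72 h it read 6.22, 7.31, 7.19, 7.24 and 6.89 in Malt1-/- Th17 cells, against 5.35, 6.19, 6.34, 5.02 and 5.51 in Malt1-/- Th1 cells. Th17 replicate 1 lay under Th1 replicate 3, and the difference was 1.29 ± 0.34 (2.44-fold, adjusted p = 0.00420).

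In WT cells Il6st averaged 7.05 ± 0.80 in Th17 cells and 6.10 ± 0.62 in Th1 cells at 72 h. The difference of 0.95 ± 0.34 was called (adjusted p = 0.0419, limma), but without the 8 arrays it was 0.80 ± 0.30 and was not (adjusted p = 0.0687). It was also lost without any one of WT Th17 replicates 1, 4 and 5 and WT Th1 replicates 1, 2, 3 and 5. At 48 h the averages were 7.51 ± 0.77 in WT Th17 cells and 6.94 ± 0.43 in WT Th1 cells, and the difference of 0.57 was not called (adjusted p = 0.269). In the order of levels, the lowest Th17 group (6.97 ± 0.45, Malt1-/- at 72 h) and the highest Th1 group (6.94 ± 0.43, WT at 48 h) lay 0.03 apart. The step larger than the SD of its neighbours was that between WT and Malt1-/- Th1 cells at 48 h (0.80). The second Il6st probe, ILMN_2452075, was detected on 0 of 40 arrays.

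The genotypes did not differ in Il6st by the test. In Th1 cells at 48 h it read 5.87, 6.31, 5.86, 6.29 and 6.36 in Malt1-/- cells, against 7.61, 6.57, 6.55, 7.02 and 6.93 in WT cells. These groups did not overlap, yet the difference of -0.80 (95% interval -1.48 to -0.12) missed the threshold over all genes (adjusted p = 0.294, limma). The other genotype differences were 0.07 and -0.08 in Th17 cells and -0.42 in Th1 cells at 72 h. Il6st averaged less at 72 h than at 48 h in each of the 4 combinations of genotype and lineage. The differences ran from -0.84 to -0.46, and none was called. Without the 8 arrays that of WT Th1 cells was -0.91 and passed (adjusted p = 0.0185).

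**Figure D2:**
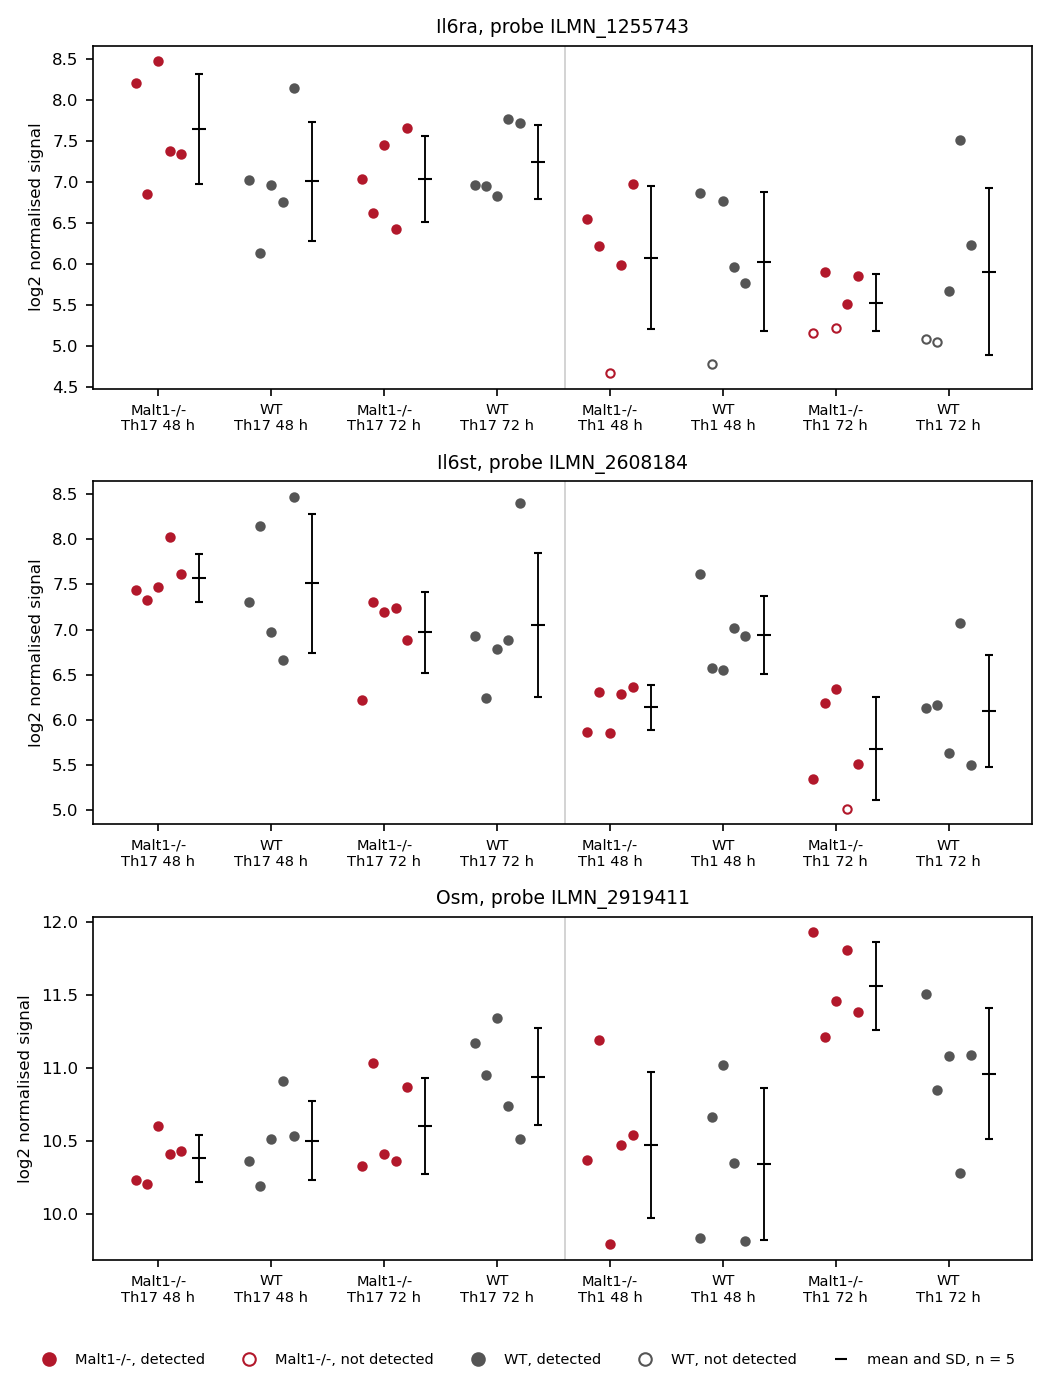
Log2 normalised signal of Il6ra, Il6st and Osm by group and array, with the mean and SD of 5 arrays beside the points and open points for arrays that did not detect the gene. The Malt1-/- Th17 arrays of Il6st at 48 h (7.33 to 8.02) lie above the Malt1-/- Th1 arrays (5.86 to 6.36), and the 72 h Malt1-/- Th1 arrays of Osm (11.21 to 11.93) lie above those at 48 h.

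**Figure D3:**
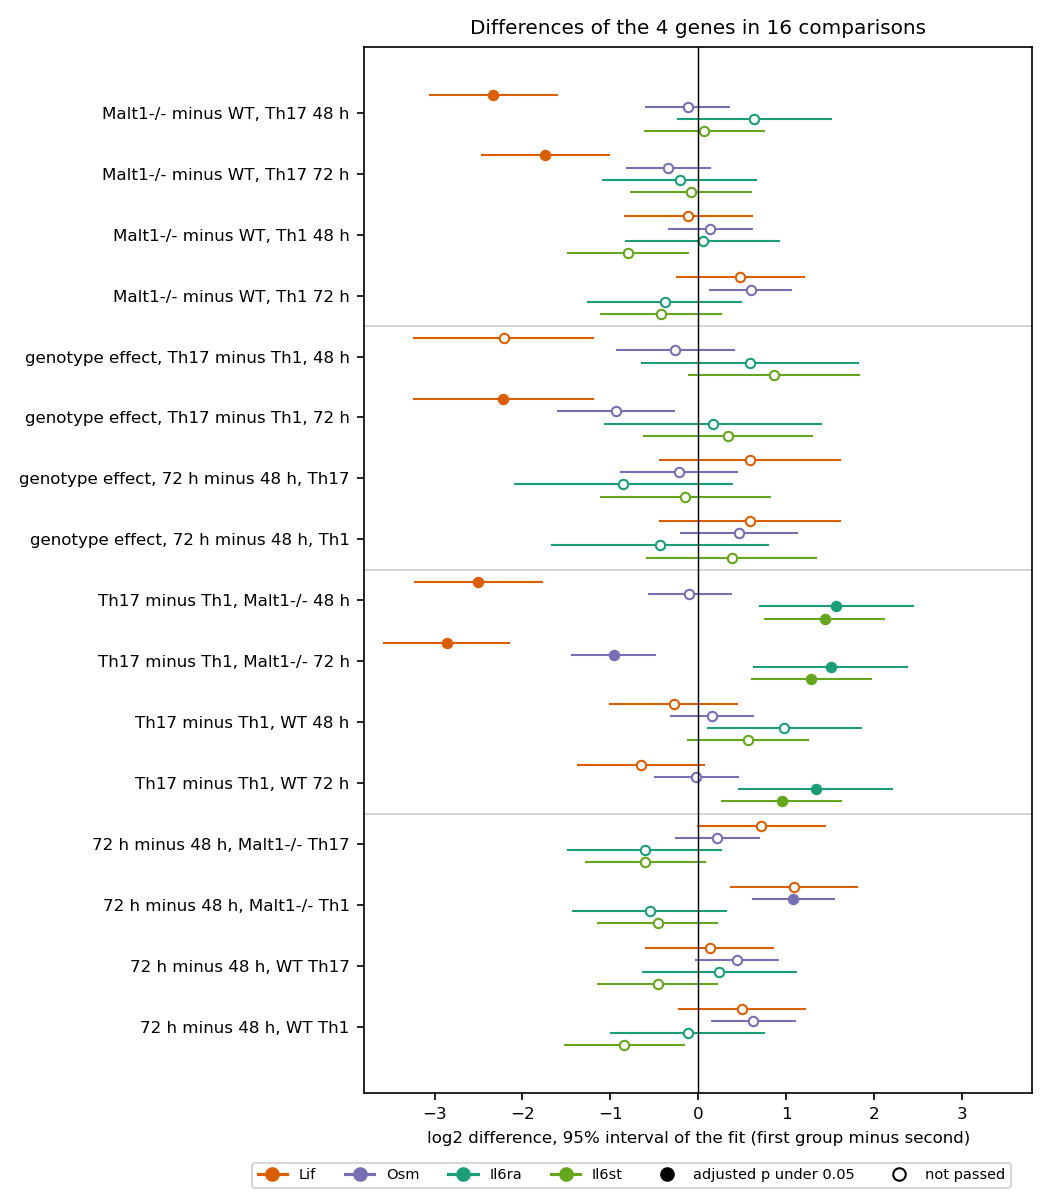
Log2 differences of Lif, Osm, Il6ra and Il6st in the 16 comparisons, the first group minus the second, with 95% intervals of the fit. Filled points passed an adjusted p of 0.05, and the 2 genotype differences so marked are both Lif, at -2.33 and -1.74.

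In all, 13 of the 64 values of the 4 genes were called, 5 of them for Lif. The share of all genes called ran from 0.0746% to 20.8% by comparison. It was highest between lineages (17.5% to 20.8%), where all calls of Il6ra and Il6st fell. The count of 13 pools these comparisons and was not tested against their shares. Over the 8 group means, Il6ra and Il6st moved together (Pearson r = 0.881), and Lif opposed Il6ra (r = -0.817) and Il6st (r = -0.710). These are descriptions over 8 points that share their arrays. The genes whose 8 group means were most like those of Lif, among 2891 genes whose means spanned at least 1 on the log2 scale, were Ggt7 (r = 0.972), Satb1 (0.966), Cd247 (0.957), Map9 (0.955) and Crem (0.950). Those most like Osm were Cpne6 (0.992), Mcf2l (0.969), Tnp2 (0.966), Kdelr3 (0.964) and Nlgn2 (0.964). For Il6ra they were Man2a2 (0.994), Tnik (0.990), Septin6 (0.988), Cmtm6 (0.987) and Cxcr3 (0.985), and for Il6st Nme3 (0.984), Ifi30 (0.975), Lrig1 (0.974), Tle4 (0.970) and Usp6nl (0.963).

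Of 11 listed ligands of the family, 10 had a probe and 5 passed the filter: Lif, Osm, Il6, Clcf1 and Ebi3. Clcf1 was detected on 15 of 40 arrays and called in no comparison, while Ctf1 was detected on 3 arrays and Il11, Cntf, Il27 and Il31 on 1 each. In Malt1-/- minus WT Th17 cells 2 of the 5 fell at 48 h, Lif and Ebi3, which pairs with other chains to form cytokines. The median difference of the 5 was -0.15, against -0.01 over all genes, of which 6.38% were called. Ebi3 read 4.52, 4.72, 5.56, 4.45 and 4.63 in Malt1-/- Th17 cells, against 7.23, 7.11, 6.55, 7.24 and 5.04 in WT Th17 cells. Its difference of -1.86 ± 0.56 (3.62-fold, adjusted p = 0.0401, limma) lost the call without any one of 8 of the 10 arrays. Without the 8 arrays that stood closer to another group, Ebi3 was lower in Malt1-/- cells in both lineages and at both times. The differences were -2.26 and -2.50 in Th17 cells and -2.35 and -1.32 in Th1 cells (adjusted p from 0.000149 to 0.0436, limma). That choice of arrays itself tends to lower p. With all 40 arrays Ebi3 was not called in Th17 cells at 72 h (-1.33, adjusted p = 0.153). Nor was it called in Th1 cells at 48 h (-1.93, adjusted p = 0.0738) or 72 h (-1.07, adjusted p = 0.337). At 72 h in Th17 cells Lif alone of the 5 was called, and in Th1 cells 0 of the 5 at either time. The median differences were -0.34 at 72 h in Th17 cells, and -0.11 and 0.02 in Th1 cells. In these comparisons 4.42%, 1.39% and 2.77% of all genes were called.

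Il6, the founding ligand, was detected in Th1 cells more than in Th17 cells. It was detected on 1 of 20 Th17 arrays and on 12 of 20 Th1 arrays. At 72 h no Malt1-/- Th17 array detected it, while all 5 Malt1-/- Th1 arrays did (6.59 ± 0.89), so that it was at least 2.51-fold lower in Th17 cells (adjusted p = 0.00364, limma). In WT cells at 72 h Il6 was at least 3.65-fold lower in Th17 than in Th1 cells by the group means (adjusted p = 0.000502). There only 3 of the 5 WT Th1 arrays detected it, and they read 9.25, 8.54, 7.36, 5.18 and 5.22. That call was lost in a fit of the groups compared alone. Between 72 h and 48 h, Il6 was higher at 72 h in Malt1-/- Th1 cells by 1.55 ± 0.47 (adjusted p = 0.0436) and in WT Th1 cells by 1.56 ± 0.47 (adjusted p = 0.0310). The first of these calls was lost without any one of 8 of the 10 arrays and the second without any one of 5. Each bound compares group means, with the Th17 arrays, none of which detected Il6, set to no less than their lowest detected signal. Il6 did not pass the test between genotypes in Th1 cells, at -0.52 at both times. Between lineages, 4 of the 5 tested ligands (Lif, Osm, Il6 and Ebi3) were lower in Th17 than in Th1 cells of Malt1-/- mice at 72 h, with a list median of -1.74 against 0.02 over all genes. There 20.8% of all genes were called in either direction. Over the alternatives 3 to 5 of the 5 were called. The Ebi3 call (-1.74, adjusted p = 0.0206, limma) was lost without background correction, with the authors' values and without Malt1-/- Th1 replicate 4. Lif alone was called at 48 h in Malt1-/- cells and Il6 alone at 72 h in WT cells, where 18.6% and 18.9% of all genes were called.

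Lifr, Cntfr and Il31ra were each detected on 0 of 40 arrays by any probe. The first 2 make receptor chains for Lif and for ciliary neurotrophic factor in complexes with gp130, and Il31ra makes the interleukin 31 receptor chain, which pairs with that of Osmr. Osmr was detected on 21 of 40 arrays and was called in no comparison. Il27ra, the interleukin 27 receptor chain that also pairs with gp130, was detected on all 40. Of the 4 chains tested, 0 were called between genotypes, where 1.39% to 6.38% of all genes were called. Il27ra in Malt1-/- minus WT Th17 cells at 48 h lay near the threshold (0.50, adjusted p = 0.0588, limma), and was called under 7 of 10 other settings and without the 8 arrays (0.59, adjusted p = 0.00768). Between lineages, 3 (Il6ra, Il6st and Il27ra) were higher in Th17 than in Th1 cells in Malt1-/- cells at 48 h and 72 h and in WT cells at 72 h. In these comparisons 18.6%, 20.8% and 18.9% of all genes were called. The median lineage differences were 1.07, 1.07 and 1.04 over the 4 chains, against -0.01, 0.02 and -0.01 over all genes. In WT cells at 72 h the count fell to as few as 1 over the alternatives, and also when 1 array was left out. In WT cells at 48 h, where 17.5% of all genes were called, only Il27ra was called. Il27ra differed by 0.71 and 0.85 in Malt1-/- cells and by 0.57 and 1.13 in WT cells at 48 h and 72 h (adjusted p from 3.81e-06 to 0.0145, limma). Its WT call at 48 h was lost under median scaling (0.36), with the mean of its kept probes and without WT Th17 replicate 5.

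**Figure D4:**
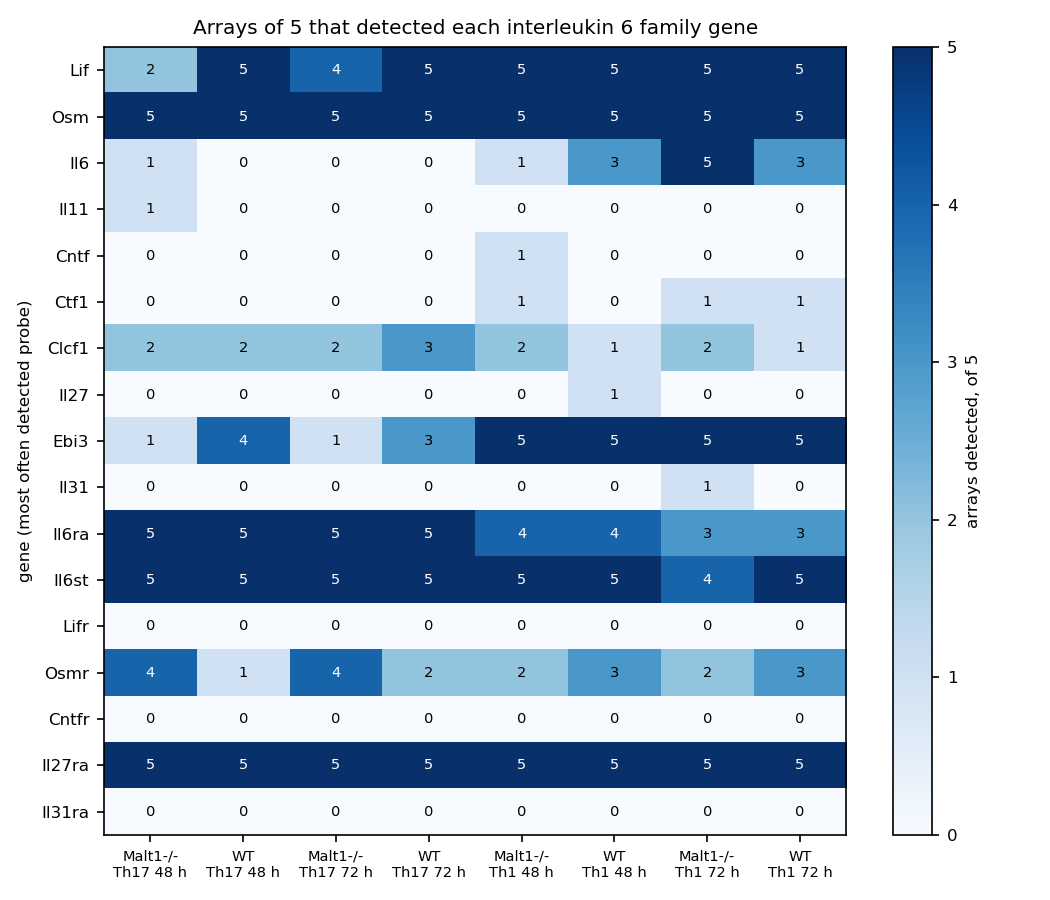
Number of the 5 arrays of each group that detected each gene of the interleukin 6 family, by the probe of the gene that was detected most often. Lif was detected on 2 and 4 Malt1-/- Th17 arrays at 48 h and 72 h and on 5 in every other group, while Lifr, Cntfr and Il31ra were detected on 0.

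A list of gp130 signal transduction, which also holds the proteases Adam10 and Adam17, had 9 tested genes. Of these, 2 were higher in Malt1-/- than in WT Th17 cells at 48 h, where 6.38% of all genes were called. They were Jak1, a kinase bound to gp130 (1.20 ± 0.37, adjusted p = 0.0470, limma), and Stat3 (0.80 ± 0.25, adjusted p = 0.0476). The median of the 9 was 0.10. Both calls were lost without any one of 9 of the 10 arrays, and both held without the 8 arrays (1.37 and 1.00, adjusted p = 0.0158 and 0.00782). Jak2, another Janus kinase, was higher in Malt1-/- Th1 cells at 72 h by 0.92 ± 0.18 (adjusted p = 0.00192), at 12.44 ± 0.27 against 11.52 ± 0.20 in WT Th1 cells. Its genotype effect differed between the lineages at 72 h (-1.16 ± 0.26, adjusted p = 0.0178). Jak2 was lower in Th17 than in Th1 cells of Malt1-/- mice at 48 h (-1.81) and 72 h (-1.59) and of WT mice at 48 h (-1.31). Stat3 was higher in Th17 than in Th1 cells in Malt1-/- cells at 48 h (1.33) and in WT cells at 72 h (0.85). Jak1 was higher in Th17 cells (1.37) and Tyk2 lower (-0.47, not called without the 8 arrays, adjusted p = 0.0639) in Malt1-/- cells at 48 h. No gene of this list was called over time, where 0.699% to 12.3% of all genes were called.

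Of 8 tested inhibitors of the pathway, 0 were called between genotypes, with medians from -0.21 to 0.16. Socs3, among them, is also on the STAT3-linked list. In those comparisons 1.39% to 6.38% of all genes were called, so a count of 0 of 8 does not set the inhibitors apart. Pias1, an inhibitor of STAT proteins, was higher in Th17 than in Th1 cells in both genotypes and at both times (0.44 to 0.89, adjusted p from 2.24e-06 to 0.0161, limma). Both of its WT calls were lost under median scaling and in a fit of the groups compared alone. That at 48 h was also lost without WT Th17 replicate 5. Socs3 was higher in Th17 than in Th1 cells in WT cells at 48 h (0.88, adjusted p = 0.0485), where Ptprc was lower (-0.76). That Socs3 call was lost without any one of 7 of the 10 arrays. Socs3 was higher at 72 h than at 48 h in WT Th17 cells by 1.09 and in WT Th1 cells by 1.37, calls that were lost in a fit of the groups compared alone. Ptprc was higher at 72 h in WT Th17 cells by 0.69, a call lost without any one of 7 of the 10 arrays and under 3 of 10 other settings. In Malt1-/- cells Ptpn6 was lower in Th17 than in Th1 cells at 48 h (-0.62) and Ptpn2 at 72 h (-0.55, not called without the 8 arrays, adjusted p = 0.0678).

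Of 19 tested T cell genes linked to STAT3, 4 were lower in Malt1-/- than in WT Th17 cells at 48 h and 0 higher, where 6.38% of all genes were called and 319 of 10730 were lower. Over the alternatives 3 to 7 of the 19 were called at 48 h and 2 to 5 at 72 h, where leaving out 1 array gave 1 to 4. The 4 were the cytokines Il17a (-2.85 ± 0.49), Il17f (-1.90 ± 0.49) and Il10 (-2.83 ± 0.61), and Junb, a subunit of AP-1 (-0.69 ± 0.18), with adjusted p from 0.000934 to 0.0230 (limma). At 72 h, where 4.42% of all genes were called, Il17a (-3.46), Il17f (-1.67) and Il10 (-2.41) were called. The median of the 19 was -0.43, against -0.31 at 48 h. The Junb call was lost without any one of 4 of the 10 arrays, as was that of Il10 at 72 h. The Il17f call at 72 h was lost without any one of 7 of the 10 arrays and without the 8 arrays (-1.57, adjusted p = 0.0965). The other listed genes, among them Maf, Batf, Irf4, Rora and Bcl6, did not pass the test between genotypes in Th17 cells.

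In Th1 cells Il21, a cytokine gene that STAT3 is known to act on, was higher in Malt1-/- than in WT cells at 48 h (2.19 ± 0.42, adjusted p = 0.00309, limma) and at 72 h (1.59 ± 0.42, adjusted p = 0.0300, lost without any one of 6 of the 10 arrays). At 48 h it read 9.44, 10.87, 9.82, 10.28 and 10.20 in Malt1-/- Th1 cells, against 8.31, 7.52, 8.53, 9.19 and 6.11 in WT Th1 cells, with no overlap. Bcl3, a nuclear partner of NF-kappaB, was lower in Malt1-/- Th1 cells at 72 h (-0.96 ± 0.22, adjusted p = 0.0103, lost without any one of 3 of the 10 arrays). The Il17a genotype effect differed between lineages at 72 h (-3.49 ± 0.70, adjusted p = 0.00703), and at -2.60 no longer passed without the 8 arrays (adjusted p = 0.0640).

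Between lineages, Il17a, Il17f, Rora, Maf, Bcl6 and Ccr6 were higher in Th17 than in Th1 cells in both genotypes and at both times. The Bcl6 call in WT cells at 48 h was lost without any one of 4 of the 10 arrays and under median scaling. Both WT calls of Bcl6 were lost in a fit of the groups compared alone. Its calls in WT cells at 72 h and in Malt1-/- cells at 48 h were each lost without 1 array. Rora, a Th17 transcription factor, differed by 3.75 and 2.65 in Malt1-/- cells and by 3.18 and 2.99 in WT cells. Pim1, a kinase gene, was lower in Th17 cells in 3 of the 4 comparisons (-1.28, -1.23 and -1.28), but all 3 calls were lost with the mean of its kept probes. Il10 was higher in Malt1-/- Th17 than Th1 cells at 48 h (1.77, lost without any one of 7 of the 10 arrays), and Bcl3 (0.91) at 72 h, where Batf (-0.97) and Myc (-0.94) were lower. In WT cells at 48 h Il10 (3.46), Il21 (2.51), Bcl3 (1.40) and Irf4 (0.36) were also higher in Th17 cells. At 72 h the Il1r1 call (0.65, adjusted p = 0.0431, limma) was lost without any one of 7 of the 10 arrays, under 6 of 10 other settings and without the 8 arrays.

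Over time, 6 of the 19 were called higher at 72 h in WT Th1 cells (Socs3, Bcl3, Il21, Il10, Hif1a and Fosl2), where 10.5% of all genes were called and 598 of 10730 were higher. In WT Th17 cells 3 were (Socs3, Pim1 and Fos), where 12.3% were called and 533 were higher. All of these calls were lost in a fit of the groups compared alone, in which 1 gene in all was called in each lineage. Leaving out 1 array gave 3 to 6 calls in WT Th1 cells and 0 to 4 in WT Th17 cells, and that of Pim1 was also lost without any one of 7 of the 10 arrays. In Malt1-/- Th1 cells 1 was called (Irf4, lost without any one of 5 of the 10 arrays) and in Malt1-/- Th17 cells 0, where 5.95% and 0.699% of genes were called.

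**Figure D5:**
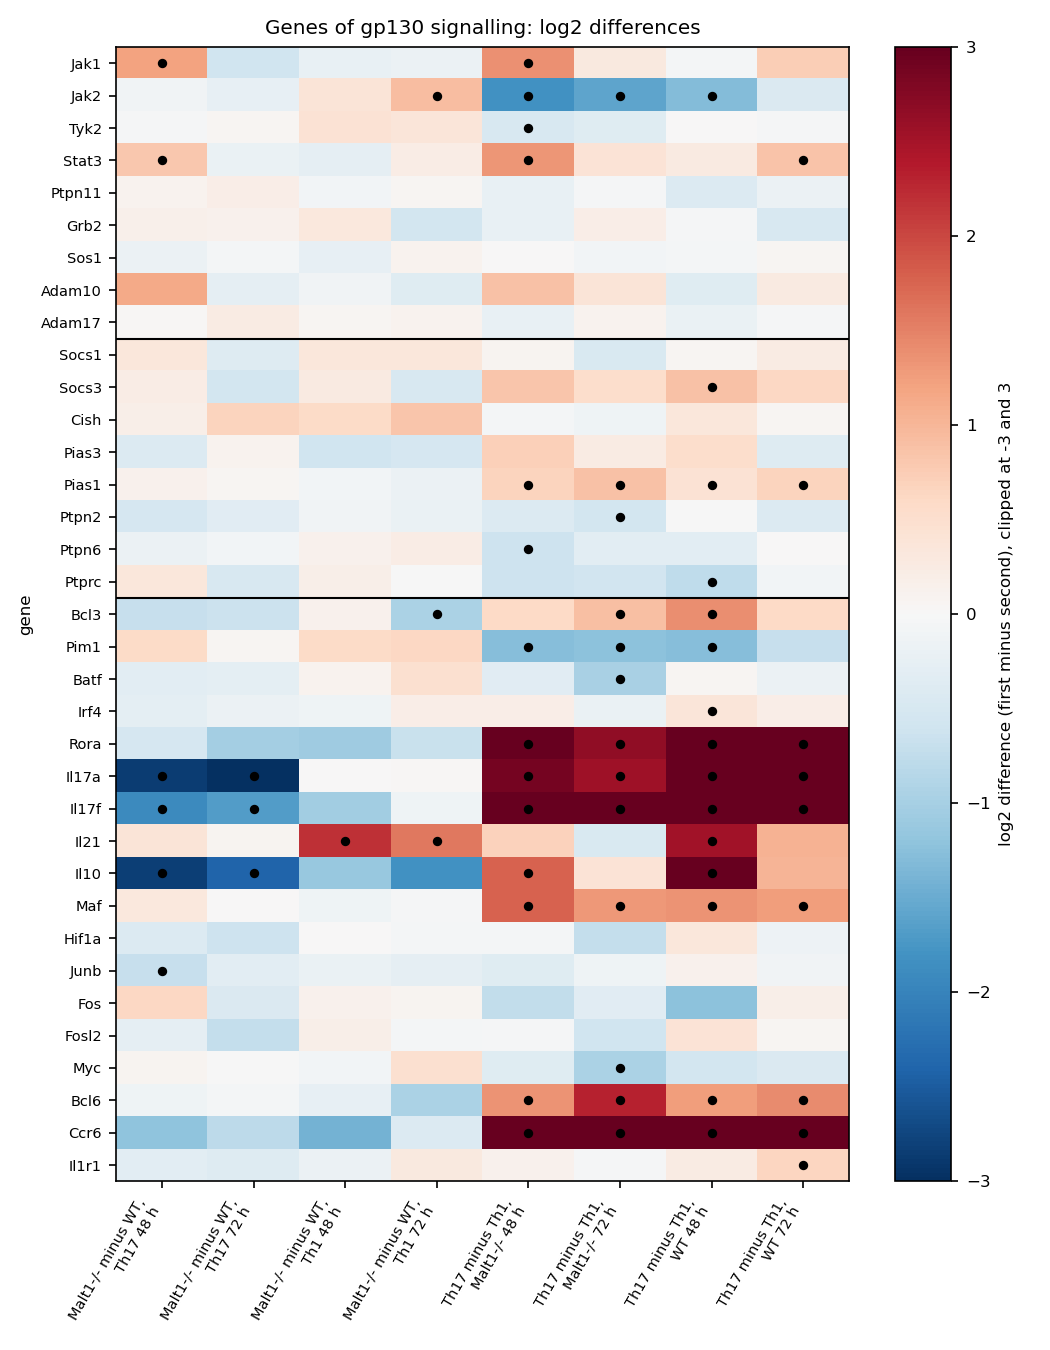
Log2 differences of the tested genes of gp130 signal transduction, its inhibitors and STAT3-linked T cell genes, with dots on called values and colours clipped at -3 and 3. The 4 columns on the left are Malt1-/- minus WT, where Il17a, Il17f and Il10 are lower in Th17 cells at both times, and the 4 on the right are Th17 minus Th1.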

How the data were processed

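Total RNA of 40 samples was hybridised to bead arrays (Illumina MouseWG-6 v2). RNA was extracted, per the labels' protocols, with Trizol, cleaned with RNeasy and DNase I, and labelled as biotinylated cDNA. The deposited signals are linear intensity values per probe, without background subtraction or scaling. The deposited detection column holds 1 minus the detection p-value, per the file headers. The authors' value table is on the log2 scale, and comparing it with the raw signals showed log2 quantile-normalised signals centred on each probe's median (largest difference 0.0149). Which scanner software was used is not given in these sources.

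Signals were background-corrected by detection p-value, offset by 16 and quantile normalised with neqc in limma 3.58.1 (R 4.3.3). Of 45281 probes, 20739 had a detection p under 0.05 on at least 5 arrays. GEO's platform annotation gave 1 symbol for 34885 probes, several for 18 and none for 10378. Each of 10730 genes was represented by its kept probe with the highest mean. One linear model of 8 group means on all 40 arrays gave 16 comparisons, with eBayes and Benjamini-Hochberg adjustment over the genes, or over the kept probes where a probe is tested on its own. The script was tested on simulated data. Precision is limited by how many arrays each group holds.

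The 4 genes and the lists were chosen with earlier results of these data known. Named genes were the members, the called genes of the lists, the family's ligands and receptor chains on the arrays, and the 5 genes most like each member by the correlation of group means. Alternatives changed the background correction, scaling, filter, probe choice, starting values, arrays in the fit, variance model, array weights and replicate block, or left out arrays. Over 140 pairs of arrays with the same replicate number, the residuals correlated with a median of 0.014 (-0.416 to 0.513), so the numbers were not used to pair samples. Promoter windows came from RefSeq (GRCm38.p6), with entries for 3 of the 4 members.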

Additional observations from a re-analysis of the deposited data

Results flagged for a closer look

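Among the family's probes, 6 of 112 groups of 5 arrays held an array far from the other 4 by Dixon's ratio, and chance flags about 1 in 20 groups. For Lif probe ILMN_1234792, WT Th17 48 h replicate 5 read 5.55 against 4.71 to 4.89 in the others, and WT Th17 72 h replicate 1 read 5.67 against 4.79 to 4.92. For Il6ra probe ILMN_1216057, Malt1-/- Th17 72 h replicate 4 read 5.13 against 5.99 to 6.17. For Ebi3, Malt1-/- Th17 48 h replicate 3 read 5.56 against 4.45 to 4.72, Malt1-/- Th17 72 h replicate 1 read 5.76 against 4.92 to 5.09, and Malt1-/- Th1 48 h replicate 1 read 5.58 against 6.14 to 6.25. None of the probes used for the members' main values was among these.

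The genotype effect at 72 h differed between Th17 and Th1 cells by an interaction term for 3 of the members and listed pathway genes. The difference was -2.22 for Lif, -1.16 for Jak2 and -3.49 for Il17a. That of Lif missed the threshold without background correction, with the authors' values and in a fit of the groups compared alone. That of Jak2 missed it under median scaling (-1.04) and in a fit of the groups compared alone. That of Il17a missed it without the 8 arrays (-2.60, adjusted p = 0.0640, limma).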

How the results depend on the processing

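Of 704 values of the 4 genes under other settings, 674 kept their side of the threshold, as did 778 of 800 with 1 array left out, and 0 changed sign with a call. The Lif difference in Th17 cells at 72 h, -1.74, missed in a fit of the groups compared alone (adjusted p = 0.102). The Lif genotype effect between lineages at 48 h passed in a fit of its 4 groups alone (-2.21, adjusted p = 0.0156), with a variance trend (-2.21, 0.0485), with array weights (-2.24, 0.0034) and without the 8 arrays (-1.94, 0.0159), and ran from -2.45 to -1.93 leaving out 1 array. At 72 h it missed without background correction (-1.15, 0.0576), with the authors' values (-1.15, 0.0581) and with its 4 groups alone (-2.22, 0.127), and ran from -2.49 to -1.94. The Il6ra lineage difference missed in Malt1-/- cells at 72 h as a mean of probes (0.84, 0.0714) and in WT cells at 72 h with those groups alone (1.34, 0.0864), where leaving out 1 array gave 1.12 to 1.74. That of Il6st in WT cells at 72 h missed without background correction (0.42, 0.0809), under median scaling (0.90, 0.112), without a filter (0.95, 0.0705), with the authors' values (0.42, 0.0814), with those groups alone (0.95, 0.180), with array weights (0.96, 0.0682) and without the 8 arrays (0.80, 0.0687), and ran from 0.61 to 1.19 leaving out 1 array. The cause was not tested. The fit without the 8 arrays was chosen after seeing the data.

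With the replicate block, the Lif effect between lineages at 48 h was -2.21 and passed (adjusted p = 0.0401), and no other call of the 4 genes changed. Of the 40 arrays, 6 correlated best with one of their own number.

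The count of all genes called between genotypes in Th17 cells was 685 at 48 h (440 to 2335 over the other settings, 281 to 1156 leaving out 1 array) and 474 at 72 h (58 to 1685, 105 to 846), and in Th1 cells 149 (62 to 400, 84 to 203) and 297 (82 to 553, 138 to 607). Median scaling moved the median of all genes in Malt1-/- minus WT Th17 cells at 48 h to 0.17, against -0.01, and the share of calls that were higher to 93.1%, against 53.4%. Without background correction or with the authors' values, called differences of the members were smaller, as for Il6ra and Il6st in Malt1-/- Th17 minus Th1 cells at 48 h, whose lowest values were 0.74 and 0.67. A slide block was not run.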
